A study of Rattus norvegicus with 9 samples.

Results

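The regions described here are stretches of the rat genome in which the Egr1 ChIP-seq signal of the medial prefrontal cortex (mPFC) was called different between females in proestrus and females in diestrus. They are all rows of the deposited comparison of these stages that lie on chromosomes 1 to 20, which gives 1654 of its 1774 regions, and 5690 regions were listed over the 3 comparisons of the study. The other 120 rows, 116 on chromosome X and 4 on the mitochondrial genome, were left out. The direction of each region was computed from the deposited group means.

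Egr1 is a zinc finger transcription factor encoded by an immediate early gene, which neurons switch on within minutes of synaptic activity, and it binds a GC-rich DNA element. In cortex and hippocampus, it is known for its part in the gene expression that follows activity and that long-lasting plasticity and memory need. The mPFC, which weighs emotional and social information in the control of behavior, responds to ovarian hormones, and the estrous cycle of the rat carries these hormones from low levels in diestrus to their peak in proestrus.

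Both groups were 8-week-old female Sprague-Dawley rats, untreated and pair-housed, with cycles followed by vaginal cytology. The proestrus females (n = 2) were killed in the early afternoon of that stage, and the diestrus females (n = 4) early on its first day, each library coming from a separate biological replicate. Males (n = 3) are used only where a region was also listed against them. Chromatin of mPFC punches, which hold all cell types of the tissue, was sheared to 200 to 500 bp and precipitated with 4 μg of the same antibody in all groups, and Egr1 signal of neurons and of other cells cannot be told apart. Since ChIP-seq of DNA carries no expression of marker genes, the tissue label could not be checked against such markers.

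Each value below is a number of normalized reads in a region, as the authors deposited it for every library in a list without names, and libraries are therefore called by their place in the list of their group. Divided by what a single read is worth in its library, all 10644 library values of the table came within 0.1 of a whole number of reads. The value of 1 read was 1.32 and 0.695 normalized reads in the first and second proestrus library and between 0.853 and 1.26 in the diestrus libraries. The first proestrus library thus held 1.89 times fewer reads per normalized read than the second. Summed over the members, 8934 and 14969 reads came from proestrus, and from 1374 to 2350 (median 1731) from each diestrus library, but these sums follow from which regions were listed and are not library sizes. Because the table lists regions called on these same libraries, the differences below are given as a description, without a test. With 2 against 4 libraries, moreover, no exact permutation test could go below p = 0.0667 (one-sided).

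Egr1 signal was higher in proestrus in 1625 of the 1654 regions and lower in 29. The share of higher regions was 98.2% (Wilson 95% interval 97.5% to 98.8%), and over all listed regions of the comparison 98.4% were higher and 1.63% lower. These shares were fixed by the calling of the regions and say nothing of the genome as a whole. Wilson intervals, here and below, take regions as independent and cover no variation between animals. In 1620 of the 1625 higher regions, both proestrus libraries lay above all 4 diestrus libraries, and in all 29 lower regions both lay below all 4. Over all listed regions, 98.1% separated upwards and 1.63% downwards.

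**Figure D1:**
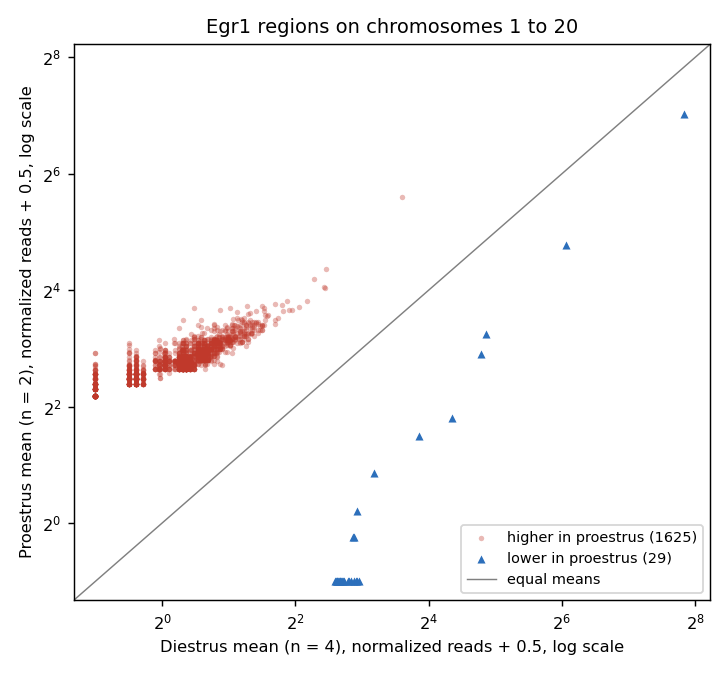
Mean normalized reads of each member region in diestrus (x axis, n = 4) and proestrus (y axis, n = 2), both with 0.5 added and on log scales. The 1625 higher regions (red points) have a median of 6.42 in proestrus, with a range of 4.06 to 47.75. The 29 lower regions (blue triangles) lie on the other side of the line of equal means, 19 of them at 0 in proestrus.

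The higher regions formed a narrow group of low values. Their proestrus means had a median of 6.42 normalized reads (range 4.06 to 47.75) against 0.790 in diestrus (range 0 to 11.6). The median log2 ratio of the group means was 2.99 over the 1477 regions with a diestrus read, with quartiles of 2.74 and 3.54 and a range from 1.69 to 5.27. In the other 148 regions, all 4 diestrus libraries were at 0, and signal was at least 5.14-fold to 8.96-fold higher in proestrus when 3 reads over the diestrus group were taken as the limit of a count of 0. With these regions at their limit, the median was 2.95. Counting intervals and this limit cover counting error only.

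The signal of these regions rested on few reads. A median of 17 reads over all 6 libraries stood behind a region (range 9 to 146), and 1185 of the 1625 had fewer than 20. No higher region had a proestrus library at 0, and none had fewer than 3 reads in the first proestrus library or 6 in the second, which correspond to 3.95 and 4.17 normalized reads. At these lowest values lay 227 regions in the first library, 224 in the second and 65 in both, and regions below them were not listed.

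The proestrus libraries had much the same level in these regions. Their medians over the higher regions were 6.58 and 6.26 normalized reads, against 0.85, 0, 0 and 1.04 in the 4 diestrus libraries. The first library was the higher of the pair in 892 regions and the second in 733, and 1443 regions had both within 2-fold of each other. Of the 182 regions (11.2%) in which they were further apart, the first, shallower library was higher in 158. At least 2 of the 4 diestrus libraries were at 0 in 1049 higher regions. More regions were at 0 in libraries in which 1 read was worth more, from 619 at 0.853 over 768 at 1.04 and 825 at 1.06 to 981 at 1.26 normalized reads.

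**Figure D2:**
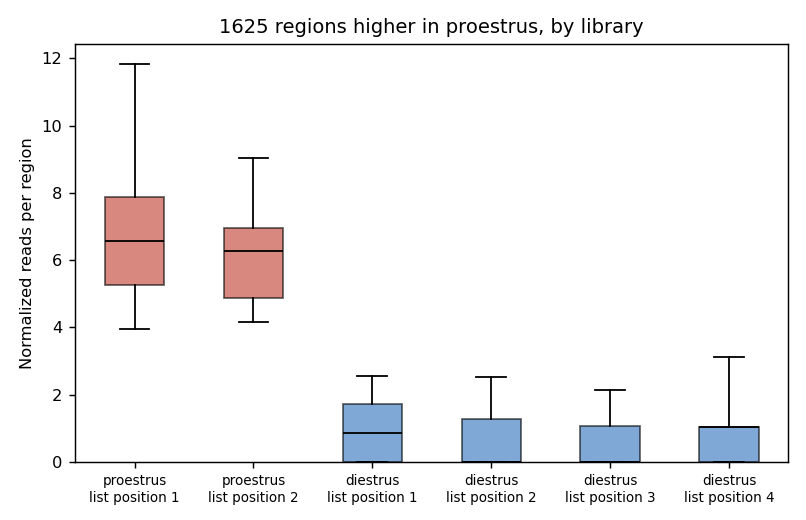
Normalized reads per region in each library over the 1625 higher regions (boxes, quartiles with the median as a line, whiskers from the 5th to the 95th percentile, libraries by their place in the list of their group). The boxes of the proestrus libraries lie above those of all 4 diestrus libraries, and 2 diestrus libraries have a median of 0.

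DiffReps, with which the regions were called, also gives an enrichment, the ratio of a group mean to its background. In the higher regions, the median enrichment was 2.68 in proestrus and 0.30 in diestrus. In diestrus, it was below 1 in 1600 of the 1625 regions, and in proestrus in 9. In most higher regions, the reads of the proestrus females thus lay above their background and those of the diestrus females below it. The background itself, recovered as the mean divided by the enrichment in 1471 regions, was alike, with medians of 2.46 normalized reads in proestrus and 2.56 in diestrus and a median log2 ratio of -0.02. It was more than 2-fold higher in proestrus in 105 of these regions and more than 2-fold lower in 164. After division by the background, all 1471 regions were higher in proestrus, 9 of them by less than 2-fold. These regions had been called on the same reads, and the part of the background in the differences was not tested.

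The higher region with most reads lay on chromosome 20 from 29290651 to 29291800 of Rnor_5.0, 71488 bp from the nearest gene. It held 44.73 and 50.76 normalized reads in the proestrus libraries and 4.27, 37.80, 4.23 and 0 in the diestrus libraries, so that a single diestrus library came close to proestrus while the other 3 stayed low. The background also differed there, with 41.5 normalized reads for the proestrus females against 12.1, and the enrichment was 1.15 against 0.96. The part of the background in this difference was not tested.

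The next 4 regions by reads were less uneven. On chromosome 17, from 46482551 to 46483350, the libraries held 14.47 and 25.73 in proestrus and 8.53, 0, 3.18 and 8.34 in diestrus. On chromosome 2, from 166436801 to 166437350, they held 14.47 and 17.38 against 6.83, 2.52, 3.18 and 7.29. Its log2 ratio of 1.69 was the smallest of all higher regions. The second region on chromosome 17, from 55636651 to 55637200, held 21.05 and 14.60 against 7.68, 1.26, 4.23 and 4.17, and that on chromosome 9 from 13718801 to 13719450 held 19.73 and 12.52 against 1.71, 6.30, 6.35 and 5.21. In these 4 regions every diestrus library lay below both proestrus libraries, and the diestrus enrichment stayed below 1.

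At the other end were regions without any diestrus read. The 3 with the largest proestrus means lay on chromosome 14 from 20632651 to 20633250, with 7.89 and 6.26 normalized reads in proestrus, on chromosome 3 from 163992051 to 163992650, with 9.21 and 4.87, and on chromosome 8 from 30083501 to 30084200, with 5.26 and 6.95. Each rested on 14 or 15 reads. Against the limit of 3 diestrus reads, they were at least 8.96-fold, 8.91-fold and 7.73-fold higher in proestrus.

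In 5 higher regions the groups were not separate, and in all 5 the second proestrus library stood at its lowest listed value of 4.17 normalized reads while the first held between 10.52 and 15.79. On chromosome 5 from 133862251 to 133862750 and on chromosome 19 from 56117401 to 56117900, the fourth diestrus library also held 4.17 and the other 3 were at 0. On chromosome 2 from 268581951 to 268582450, the second diestrus library held 5.04. The third diestrus library held 4.23 on chromosome 5 from 105160701 to 105161200 and on chromosome 8 from 72537501 to 72538000.

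The regions were spread over all 20 chromosomes, and seldom lay side by side. The median gap between neighboring members was 994575 bp, and joining regions at gaps of at most 10 kb gave 1640 loci, 14 of them with 2 regions and none with more. Per 100 Mb of coordinates covered by the tables, 60.6 regions were found, from 46.2 on chromosome 12 (exact Poisson 95% interval 29.9 to 68.2) to 81.9 on chromosome 14 (66.1 to 100.3). Only the interval of chromosome 14 lay above, and only that of chromosome 4 (49.9, interval 41.4 to 59.5) below, the overall density, and no test was run over the 20 chromosomes.

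Every region was assigned to its nearest gene, whatever the distance, which gave 1448 genes. A share of 22.5% of the members (372, Wilson 95% interval 20.5% to 24.6%) lay inside or overlapped that gene, 359 fully inside, 7 across its start and 6 across its end. A further 105 (6.35%) lay within 5 kb, and 505 regions lay more than 100 kb away, the farthest at 1449943 bp. Outside genes, the median distance was 67023 bp. Upstream of the nearest gene lay 777 regions and downstream 505. Counted from the gene start, 138 (8.34%) lay within 5 kb of it, the span in which promoters are found.

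Among the 359 regions inside a gene, 125 were centered in the first 25% of its length, 110 in the next, 72 in the one after and 52 in the last, at a median of 38.8% of the gene length. The genes that held a region inside were long, with a median of 101127 bp against 17224 bp over all nearest genes. The part of gene length in where regions lay was not tested.

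**Figure D3:**
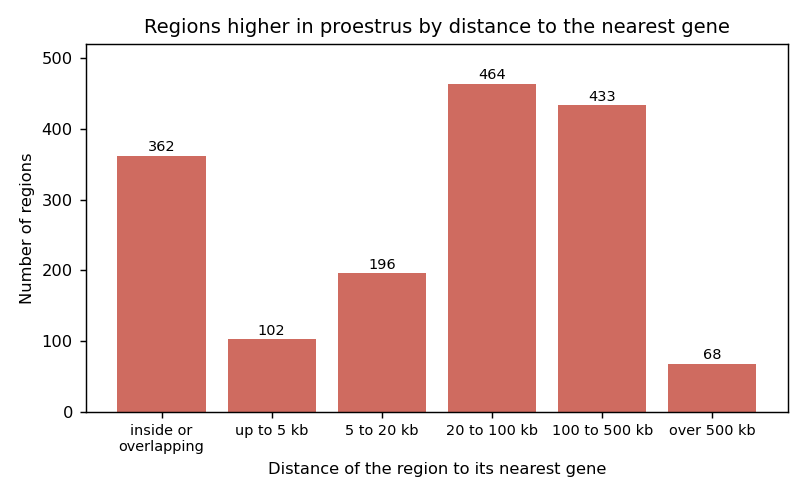
Number of higher regions (y axis, bars from 0) by distance to the nearest gene (x axis). Of the 1625 regions, 464 lay between 20 and 100 kb away and 433 between 100 and 500 kb, the 2 fullest classes, followed by 362 inside or overlapping the gene, while 68 lay beyond 500 kb.

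Among the called regions, the difference was of much the same size at every distance. All were called for a difference on these same libraries, so nothing about distance is read from this. The ratios leave out regions without a diestrus read. From regions inside a gene to those beyond 500 kb, the median log2 ratio of the higher regions stayed between 2.96 and 3.02, and their median proestrus mean between 6.15 and 6.46 normalized reads. Regions at 0 in all diestrus libraries made up 11.0% of those inside or overlapping a gene and 5.88% of those up to 5 kb away. The share was 10.2% at 5 to 20 kb and 5.82% at 20 to 100 kb. It was 11.1% at 100 to 500 kb and 10.3% beyond 500 kb.

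Most genes were nearest to a single region. Of the 1448, 180 had 2 or more regions, 22 had 3 and 2 had 4, and 3 genes had regions in both directions. The genes with 4 regions, ENSRNOG00000038414 on chromosome 7 and ENSRNOG00000047547 on chromosome 17, are without a symbol here. Their regions lay between 187970 and 625420 bp from them, and none inside.

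Symbols could be given to 60 of the 1448 nearest genes (4.14%), for only the first 1258 rows of a longer supplementary gene table, sorted by identifier, were used here. The named genes are therefore those with the lowest Ensembl identifiers, on 10 chromosomes, and are no sample of all nearest genes. They are the nearest genes of 64 regions, all higher in proestrus and all with both proestrus libraries above the 4 diestrus libraries, as were 98.1% of all listed regions. Of the 64, 51 had fewer than 20 reads. Each is a nearest gene, and no RNA is analysed here. The rule for those named below, 33 genes with 37 regions, took genes with a region inside or within 5 kb, members of fixed lists, genes with several regions and the 5 with the largest proestrus means.

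Close to a gene start lay 4 of these regions, at Pds5b, Asmt, Hsd17b11 and Abhd5. The 250 bases before the start of each gene are shown because they are the nearest promoters to a named region, with every CG pair in capitals, from RefSeq on the GRCr8 build, which is not the build of the regions. The sequence of the regions themselves, on Rnor_5.0, was not read.

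Pds5b promoter (chr12:5090692-5090941, plus strand): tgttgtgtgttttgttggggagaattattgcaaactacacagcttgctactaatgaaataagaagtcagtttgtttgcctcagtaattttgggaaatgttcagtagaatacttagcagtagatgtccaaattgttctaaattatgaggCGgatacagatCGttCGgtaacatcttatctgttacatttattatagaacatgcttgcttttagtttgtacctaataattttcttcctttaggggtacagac
Asmt promoter (chr12:21423337-21423586, minus strand): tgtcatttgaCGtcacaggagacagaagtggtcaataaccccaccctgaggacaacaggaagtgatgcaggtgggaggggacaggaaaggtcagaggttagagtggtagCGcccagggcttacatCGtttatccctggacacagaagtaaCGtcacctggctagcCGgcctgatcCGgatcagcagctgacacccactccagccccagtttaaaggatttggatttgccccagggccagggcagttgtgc
Hsd17b11 promoter (chr14:6016440-6016689, plus strand): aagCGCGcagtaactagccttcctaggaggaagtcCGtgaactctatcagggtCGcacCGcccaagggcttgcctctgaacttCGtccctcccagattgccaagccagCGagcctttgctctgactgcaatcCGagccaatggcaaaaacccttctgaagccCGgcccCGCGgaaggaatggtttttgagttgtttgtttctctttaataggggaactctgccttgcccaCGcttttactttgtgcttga
Abhd5 promoter (chr8:130877622-130877871, plus strand): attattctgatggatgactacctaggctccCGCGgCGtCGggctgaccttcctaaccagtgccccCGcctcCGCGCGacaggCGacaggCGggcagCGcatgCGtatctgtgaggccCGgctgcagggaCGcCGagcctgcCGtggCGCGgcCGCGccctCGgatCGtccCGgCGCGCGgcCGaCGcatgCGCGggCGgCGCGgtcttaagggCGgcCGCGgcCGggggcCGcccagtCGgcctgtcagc

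The 4 promoters differ widely, from 3 CG pairs and 34.4% G or C in Pds5b over 6 pairs in Asmt and 12 in Hsd17b11 to 39 pairs and 74.4% in Abhd5. The median over the same 250 bases of all 33469 windows of the table was 5 pairs and 51.2%. Of the known Egr1 element, the forms GCGTGGGCG and GCGGGGGCG were searched on both strands in the windows of 300 bases, 250 before and 50 after the start. They occur in 0.544% and 2.73% of all windows, and either in 3.20%. None of the 4 promoters held either form, and of the 50 named genes with a window, that of Ncam2 alone did. A match of letters is no evidence of binding, nor its absence of the contrary.

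Pds5b encodes a protein that holds on to cohesin, the ring that keeps sister chromatids together. Its region, on chromosome 12 from 686401 to 686900, ended 616 bp before the gene and held 5.26 and 6.95 normalized reads in proestrus and 0.85, 0, 1.06 and 1.04 in diestrus. The means were 6.11 ± 1.20 (SD, n = 2) and 0.740 ± 0.501 (SD, n = 4), a log2 ratio of 3.05 with 14 against 3 reads, whose counting interval ran from 1.20 to 5.48. No diestrus library came near the proestrus libraries, and the enrichment was 4.98 against 0.26.

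Asmt encodes the enzyme that makes melatonin from N-acetylserotonin. Its region, on chromosome 12 from 20512651 to 20513150 and 1447 bp upstream, held 6.58 and 5.56 in proestrus and 0, 1.26, 1.06 and 0 in diestrus. The log2 ratio of the means was 3.39, from 13 against 2 reads (interval 1.37 to 6.71), and 2.97 to 4.10 with each library left out. The background was also higher in proestrus, at 3.32 against 1.57, and the enrichment was 1.83 against 0.37.

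Hsd17b11 encodes a dehydrogenase of the 17-beta-hydroxysteroid family that sits on lipid droplets, and Abhd5 the activator of the lipase that opens the breakdown of stored triglycerides. The region of Hsd17b11, inside the gene 1628 bp from its start on chromosome 14 (7065951 to 7066450), held 17.10 and 6.95 in proestrus and 3.41, 1.26, 6.35 and 1.04 in diestrus. Here the third diestrus library nearly reached the second proestrus library, and the log2 ratio of 1.99 (1.20 to 2.66 with each library left out) was the smallest of the 64 named regions. The background was also higher in proestrus, at 4.56 against 2.11, and the enrichment was above 1 in both groups, 2.64 and 1.43. The part of the background in the difference was not tested. The region of Abhd5, on chromosome 8 (130139251 to 130139750) and 2734 bp inside the gene, held 10.52 and 4.17 against 0, 0, 2.12 and 2.08.

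Of the 9 gene lists, with 329 genes, only 30 genes had an identifier in the rows used, and 5 of these (16.7%) were nearest to a region, against 4.85% of all 1238 identifiers with a symbol, a difference that was not tested. These were Gabra2 of the inhibitory synapse (6 of 23 with an identifier), Grm4 of glutamate receptors (4 of 35), Cplx2 of presynaptic release (2 of 29), Ncam2 of cell adhesion (3 of 73), and Nrip1 of steroid hormone receptors and cofactors (6 of 20). No region was found for the 1 of 27 immediate early genes, the 1 of 51 receptors of monoamines, acetylcholine and peptides, the 1 of 41 voltage-gated channels, or the 6 of 31 glial, endothelial and blood markers that had one. With such shares, nothing can be said of a list as a whole.

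At the synapse, Cplx2 encodes a complexin, which clamps and promotes the fusion of synaptic vesicles. Its region, 46895 bp upstream on chromosome 17 (12939001 to 12939550), had high values in both proestrus libraries, 10.52 and 9.04, against 2.56, 3.78, 2.12 and 0 in diestrus. With means of 9.78 ± 1.05 (SD, n = 2) and 2.11 ± 1.58 (SD, n = 4), the log2 ratio was 2.21 (1.79 to 2.65 with each library left out), and the enrichment was 7.98 against 0.83. It was among the best covered named regions, with 29 reads.

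The receptors followed with fewer reads. Grm4 encodes a metabotropic glutamate receptor that damps release from the presynaptic terminal, and its region, 44801 bp downstream on chromosome 20 (8941201 to 8941750), held 9.21 and 5.56 against 1.71, 0, 2.12 and 0. Gabra2 encodes the alpha 2 subunit of the GABA-A receptor, and its region held 7.89 and 4.87 against 0, 0, 1.06 and 2.08. The background at Gabra2 was 5.23 in proestrus and 1.27 in diestrus, and its part in the difference was not tested. Grm6, a receptor of the same family as Grm4 and best known from retinal bipolar cells, held a region inside the gene on chromosome 10 (36125201 to 36125800) with 7.89 and 4.87 against 0.85, 0, 0 and 1.04. All 3 receptor regions separated the groups, as did all 64 named regions and 98.1% of all listed regions.

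Among genes of cell contact, Ncam2 encodes a neural adhesion molecule, Ca10 a carbonic anhydrase-related protein that binds neurexins, and Cd47 a surface protein that protects cells from phagocytosis. The region of Ncam2 lay 721999 bp downstream on chromosome 11 and held 7.89 and 4.87 against 0, 0, 0 and 2.08. Ca10 held its region inside the gene on chromosome 10 (80693901 to 80694400), with 3.95 and 5.56 against 0.85, 0, 0 and 0. That ratio rests on 1 diestrus read (log2 interval 1.49 to 9.70), and its background was 3.30 against 0.477. Inside Cd47, on chromosome 11 (56710401 to 56711050), the region held 5.26 and 6.26 against 0.85, 0, 1.06 and 1.04.

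Nrip1 encodes a corepressor that estrogen and other nuclear receptors recruit, and it was nearest to 2 regions on chromosome 11, downstream and upstream of it. The region 85826 bp downstream (18227901 to 18228400) held 6.58 and 5.56 normalized reads against 0, 1.26, 0 and 1.04, and the region 105937 bp upstream (18503501 to 18504200) held 9.21 and 5.56 against 1.71, 0, 0 and 2.08. Both separated the groups, as did all 64 named regions and 98.1% of all listed regions. Their log2 ratios were 3.39 (interval 1.37 to 6.71, from 2 diestrus reads) and 2.96. With each library left out, these ran from 2.985 to 4.130 and from 2.547 to 3.696. The background was lower in proestrus at the first, 1.91 against 2.9, and higher at the second, 5.77 against 3.8.

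Bcl6, a zinc finger repressor of transcription, also had 2 regions on chromosome 11, both upstream. The nearer, at 33209 bp (80510401 to 80510900), held 5.26 and 4.17 against no diestrus read, at least 5.97-fold higher. The farther, at 102009 bp (80579201 to 80579900), held 3.95 and 9.04 against 2.56, 0, 1.06 and 0. Glt1d1, which encodes a putative glycosyltransferase, and Fam101a, which encodes a filamin-binding protein, had 2 regions each on chromosome 12. In each pair, 1 region was at 0 in all diestrus libraries, with 6.58 and 4.17 in proestrus at Glt1d1 and 3.95 and 4.17 at Fam101a. The other held 7.89 and 7.65 against 0.85, 2.52, 0 and 2.08 at Glt1d1 and 7.89 and 5.56 against 0.85, 0, 2.12 and 0 at Fam101a.

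The largest proestrus mean of a named gene was that of Col6a1, an alpha chain of collagen VI of the extracellular matrix, and Igfbp7, a secreted protein that binds insulin-like growth factors, followed Hsd17b11 and Cplx2. At Col6a1, 86113 bp upstream on chromosome 20 (14730701 to 14731450), the proestrus libraries held 17.10 and 8.34 and the diestrus libraries 5.12, 0, 2.12 and 2.08. At Igfbp7, 92551 bp upstream on chromosome 14 (32710701 to 32711300), they held 11.84 and 6.26 against 1.71, 2.52, 2.12 and 1.04. Tmem191c, a transmembrane protein, came next with 11.84 and 4.87 against 0.85, 2.52, 2.12 and 1.04. In these 3 regions the first proestrus library was 1 of the highest values of all named regions and exceeded the second clearly, whereas the diestrus libraries stayed below the lower of the pair.

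**Figure D4:**
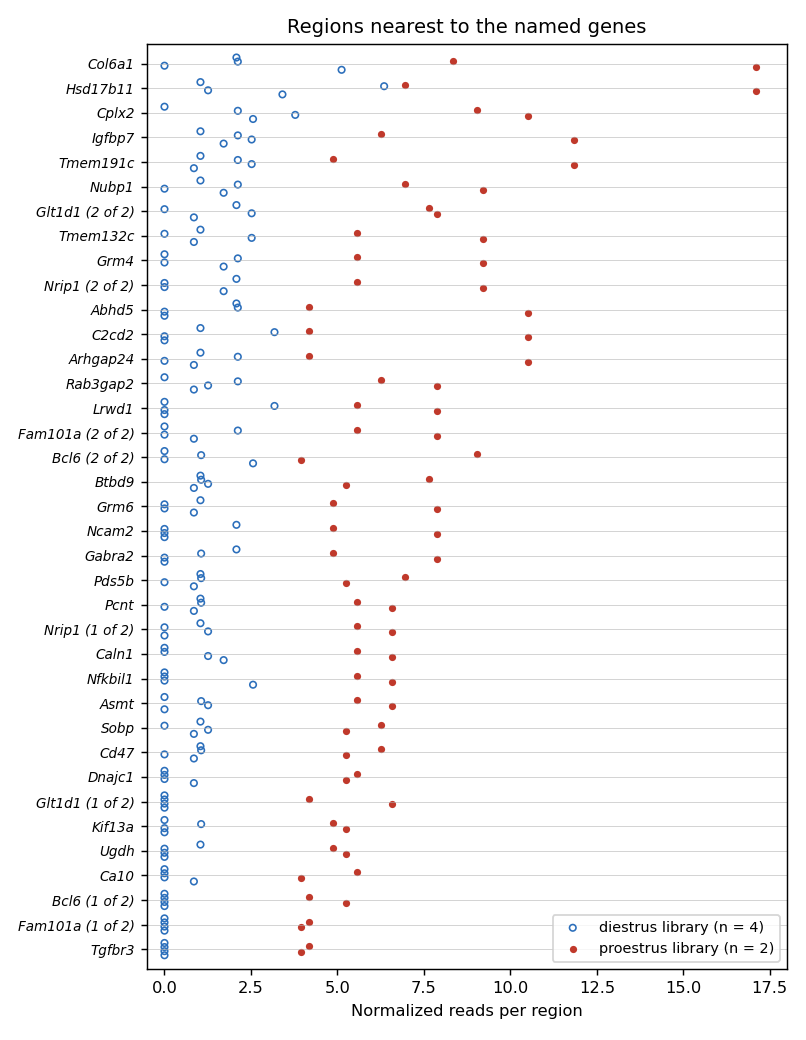
Normalized reads in each proestrus library (red, n = 2) and diestrus library (blue circles, n = 4) at the 37 regions nearest to the 33 named genes, ordered by the proestrus mean, with genes of 2 regions on 2 lines. In all of them both proestrus libraries lie above the 4 diestrus libraries, most closely at Hsd17b11.

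In all, 22 regions lay inside a named gene or within 5 kb of it, with proestrus means between 4.06 and 12.03, diestrus means between 0 and 3.02 and 9 to 35 reads. Beside those above, they included regions inside Tgfbr3, the co-receptor betaglycan, Kif13a, a kinesin motor, Rab3gap2, a regulator of Rab GTPases, and Arhgap24, a GTPase-activating protein for Rac. The region inside Tgfbr3 held 3.95 and 4.17, the lowest listed values of both libraries, against no diestrus read. Kif13a, with 5.26 and 4.87, had 1 diestrus read, and Rab3gap2 held 7.89 and 6.26 against 0.85, 1.26, 2.12 and 0. At Arhgap24 the proestrus libraries were apart, with 10.52 and 4.17 against 0.85, 0, 2.12 and 1.04, and the background was 5.03 against 2.13.

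The remaining regions of this kind lay inside Ugdh, which makes the UDP-glucuronate of proteoglycans and glucuronides, Pcnt, a scaffold of the centrosome, Lrwd1, a partner of the origin recognition complex, Nubp1, a factor of iron-sulfur cluster assembly, Caln1, a neuronal calcium sensor, and Dnajc1, a chaperone of the endoplasmic reticulum. The others lay inside Nfkbil1, Btbd9, Sobp, C2cd2 and Tmem132c. At these 11 genes the proestrus values ran from 4.17 to 10.52 and the diestrus values from 0 to 3.18. Background was at hand in both groups for 53 of the 64 named regions, and it was more than 2-fold higher in proestrus in 10 and more than 2-fold lower in 4.

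The other 27 named genes fell outside the rule, with proestrus means between 4.06 and 8.16 and diestrus means between 0 and 1.68, and their names were read after the values had been seen. They include the transcription factors Etv5, Hlx, Hsf2 and Tfcp2l1, the receptor tyrosine kinase Kit, the kinases Dyrk1a and Cdc7, the ubiquitin ligases Cblb and Lnx1, the adhesion molecule Alcam, and Srd5a3 of the steroid 5-alpha-reductase family. Their regions lay outside and more than 5 kb from the gene.

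The 29 regions lower in proestrus were better covered, with 22 to 1174 reads and a median of 26, and none was nearest to a named gene. In 19 of them both proestrus libraries were at 0, while every diestrus library held between 3.78 and 9.53 normalized reads. These 19 had 22 to 28 reads and were at least 3.67-fold to 4.79-fold lower in proestrus when 3 reads over the 2 proestrus libraries were taken as the limit. In the 10 regions with a proestrus read, the median log2 ratio was -2.65 (range -4.29 to -0.81), and -2.01 over all 29 with the regions at 0 at their limit. Without the second proestrus library, 2 of the 10 had no proestrus read left, and the median was -1.56 over the other 8, or -1.76 over the 10 with these 2 ranked lowest.

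The lower regions had no listed region under 22 reads, whereas 1185 of the higher regions had under 20. Their median enrichment was 2.15 in diestrus, where 28 of 29 stood at 1 or above, and 0 in proestrus. Inside or across a gene lay 10 of the 29 (34.5%, Wilson 95% interval 19.9% to 52.7%), against 22.3% of the higher regions, a difference that was not tested. The region across a gene start, on chromosome 2 from 54088751 to 54089400, held no proestrus read and 5.97, 8.82, 6.35 and 7.29 normalized reads in diestrus.

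Of the 6 lower regions with most reads, 4 lay within 32750 bp of each other on chromosome 1. From 236145051 to 236145900, the proestrus libraries held 5.26 and 0.70 and the diestrus libraries 15.36, 18.90, 12.70 and 32.30. From 236156201 to 236156700, they held 3.95 and 0.70 against 16.21, 5.04, 15.88 and 18.75. From 236164301 to 236164800, inside ENSRNOG00000012067 and 610 bp from its start, they held 10.52 and 3.48 against 24.74, 30.24, 17.99 and 35.43, and from 236177251 to 236177800 they held 11.84 and 6.26 against 27.30, 23.94, 20.11 and 42.72.

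The libraries fell in a similar order at these 4 regions. The first proestrus library was above the second, and the fourth diestrus library above the other 3, in all of them. The background was lower in proestrus by 0.56 to 0.94 on the log2 scale, and the enrichment stood between 0.22 and 0.71 in proestrus and between 0.99 and 1.29 in diestrus. The part of the background in the difference was not tested.

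The other 2 were the most covered of all members, on chromosome 17 inside ENSRNOG00000028913 and 254 bp past its end. From 91123401 to 91124200, the proestrus libraries held 125 and 136 normalized reads and the diestrus libraries 250, 252, 273 and 139. From 91127351 to 91128250, they held 25 and 28.5 against 81.1, 79.4, 75.2 and 29.2. In both, the fourth diestrus library lay just above the proestrus libraries and far below the other 3 diestrus libraries. The background was 89.2 in proestrus and 167 in diestrus at the first region, where the enrichment was higher in proestrus (1.46 against 1.37), and 23.7 against 39.9 at the second, where it was lower (1.13 against 1.66). Their log2 ratios of -0.81 and -1.31 were the smallest in size of all members.

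**Figure D5:**
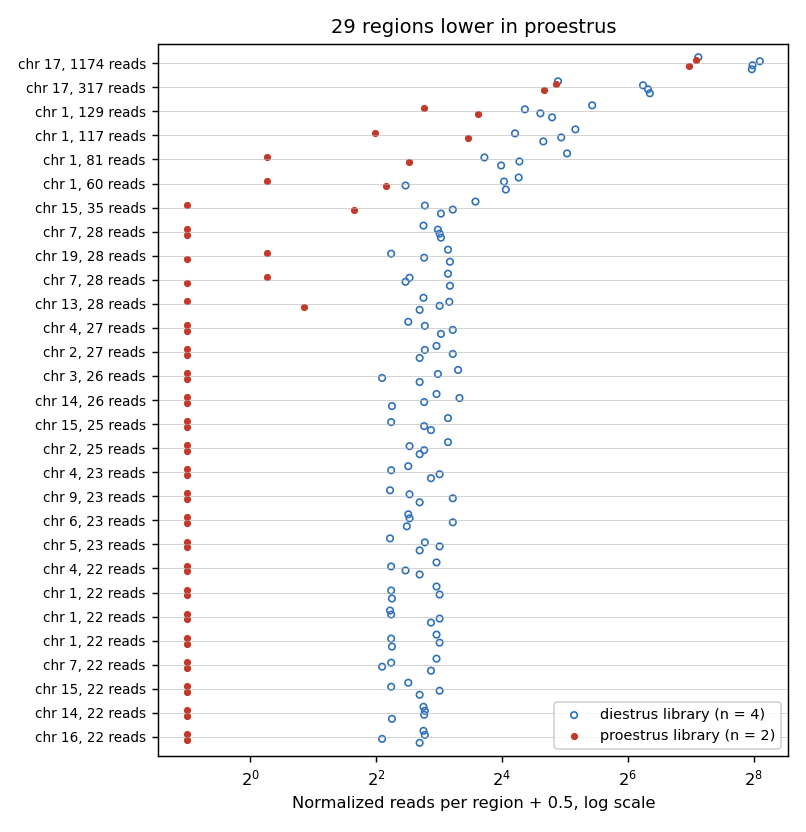
Normalized reads with 0.5 added (x axis, log scale) in each proestrus library (red, n = 2) and diestrus library (blue circles, n = 4) at the 29 lower regions, ordered by their reads over all libraries, which are given with the chromosome on the y axis. In the 2 regions at the top, with 1174 and 317 reads, 1 diestrus library lies next to the proestrus libraries, and in the 19 regions without a proestrus read all 4 diestrus libraries lie between 3.78 and 9.53.

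Lower and higher regions occurred together at 3 genes. At a gene on chromosome 15, the lower region inside it (42527601 to 42528100) held 2.63 and 0 in proestrus and 7.68, 8.82, 6.35 and 11.46 in diestrus, and a higher region lay 326096 bp upstream. The other 2 genes, on chromosomes 15 and 3, had a higher region inside and a lower region 76647 and 207418 bp upstream, and the gene on chromosome 3 had a second higher region 387968 bp upstream.

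Some members were also listed when either female group was compared with males. These tables share libraries with the present one and were normalized separately, so that the values are set side by side only. A region of proestrus versus males overlapped 149 members, 146 higher and 3 lower in proestrus than in diestrus. All 146 were also higher in proestrus than in males, as were 90.3% of all autosomal regions of that table, and the 3 were lower than in males, as were 9.68%. Both tables were called on the same proestrus libraries. At the 146, the medians of the means were 6.75 in proestrus and 0.790 in diestrus, and in males, from their own table, 1.36. The second Nrip1 region was one of them, with 2.78, 0 and 1.27 normalized reads in the male libraries. Tmem191c had 0, 0.92 and 3.17 in males, and the lower region across a gene start on chromosome 2 had 6.95, 6.42 and 8.24.

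A region of diestrus versus males overlapped 15 members, and 12 of these were higher in proestrus. At 11 of the 12, males were above diestrus females, with male libraries between 4.46 and 12.44 normalized reads. Among all autosomal regions listed there, 62.1% were lower and 37.9% higher in diestrus than in males, and the 12 had already been listed for low values in the same diestrus libraries, so that nothing is read from this count. At the 11, the means were 5.05 to 8.94 in males, 5.38 to 8.01 in proestrus and at most 1.56 in diestrus, in either table. The other of the 12, on chromosome 6 from 22775001, shared only 50 bp with its counterpart. That counterpart held 6.16 in diestrus against 1.24 in males. The region on chromosome 2 from 49847351 to 49847850, for example, held 6.58 and 7.65 in proestrus, 0, 0, 1.06 and 3.13 in diestrus, and 12.44, 4.90 and 9.48 in males. Of the 4 lower neighbors on chromosome 1, those from 236145051 and 236156201 were listed too, with male libraries at 4.98, 10.62 and 0.56 and at 2.49, 7.35 and 0. In that table the means were 25.74 and 17.77 in diestrus against 5.39 and 3.28 in males. The third lower region listed there, on chromosome 17 from 91123401, shared only 100 bp with its counterpart and went the other way, with 17.13 in diestrus against 33.98 in males.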

How the data were processed

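Egr1 ChIP-seq libraries of the rat mPFC were compared between proestrus (n = 2) and diestrus (n = 4), as the sample labels group them. Per the labels, reads were trimmed with Trimmomatic 0.32 and mapped to Rnor_5.0 with Bowtie2 2.1.0, and SAMtools 0.1.19 and Picard 1.84 were used. The authors kept uniquely mapping reads of a mapping quality of at least 30 and removed duplicates. They also removed outlier libraries, a proestrus and a diestrus library, called regions with DiffReps and annotated them with ChIPpeakAnno. For DiffReps, the window, normalization, background and thresholds were not given in the sources used here. As signal, the authors deposited the mean normalized reads of each group in a region. The deposited lists hold the library values behind these means, 1 per library, without sample names. The deposited enrichment is a ratio of the mean to its background. The authors' direction, log2 fold change, p-value and adjusted p-value columns were not used.

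The value of 1 read was estimated per library, a step tested on simulated data, and reads were recovered by division. Log2 ratios of group means were computed without a pseudocount, and regions at 0 were set against a limit of 3 reads over the group. Counting intervals of ratios were exact binomial intervals of the reads, scaled by the value of 1 read, and shares have Wilson 95% intervals. Symbols came from 1238 of the first 1258 rows of a supplementary gene table sorted by identifier, and promoters from RefSeq (GRCr8), matched by symbol for 50 of 60 genes. The named genes had a region inside or within 5 kb, belonged to a list, had 2 or more regions or were among the 5 largest proestrus means. The members, lists and rule were chosen with earlier results of these data known. Alternatives were 20 reads at least, an absolute log2 ratio of 2, pseudocounts of 0.5 and 1, loci at gaps of 10 kb, all sequences, an overlap of 50% and leaving out each library. Python 3.11.15, numpy 2.4.6, pandas 2.3.3, scipy 1.17.1 and matplotlib 3.10.9 were used.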

Additional observations from a re-analysis of the deposited data

Results flagged for a closer look

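Over the 4 diestrus libraries, 14 of the 79 regions that were examined library by library had a value far from the other 3 by Dixon's ratio at its 95% critical value. Chance flags about 1 group in 20 among continuous values, a rate that does not apply to counts this low, so the 14 cannot be set against it. In 9 of them, the library was the only one with reads, which fixes the ratio at 1. A single read did this at Ca10 and Dnajc1 (0.85 normalized reads each), Ugdh (1.04) and Kif13a (1.06), and 2 to 4 reads at Ncam2 (2.08), Nfkbil1 (2.56), Lrwd1 (3.18) and the regions on chromosomes 5 (from 133862251) and 19 (from 56117401), at 4.17 each. The other 5 rest on more reads. The second diestrus library held 37.8 in the region on chromosome 20 from 29290651, where the next highest held 4.27, and the fourth held 29.17 on chromosome 17 from 91127351, where the next lowest held 75.15. The remaining 3 were lower regions of 22 or 23 reads, with 8.82 on chromosome 6 from 145093001, 4.27 on chromosome 14 from 83263351 and 3.78 on chromosome 16 from 10724451.

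Outside the members, the comparison listed 4 mitochondrial regions, all higher in proestrus. Their proestrus means reached 96.6 normalized reads, and their enrichment was at most 0.10 in proestrus and 0.08 in diestrus.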

How the results depend on the processing

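The 1625 higher regions became 440 with at least 20 reads, since regions of few reads made up the rest by construction, while all 29 lower regions had 20 or more. The median log2 ratio of higher regions was 2.46 and 2.09 with pseudocounts of 0.5 and 1, and 2.90 to 3.12 with each library left out. That of the lower regions was -3.64 and -2.75 with pseudocounts of 0.5 and 1, which bring in the regions at 0, and -3.12 to -1.56 with each library left out, the last without the second proestrus library, over the 8 regions that kept a proestrus read (-1.76 over all 10 with the others ranked lowest). Medians with a library left out cover only regions that still have a ratio, 1337 to 1477 of the higher regions. The median of the named regions, 2.96, ran from 2.67 to 3.27. The share of regions inside or overlapping a gene was 28.8% with those within 5 kb counted, and genes with 2 or more regions fell from 180 to 18 when only regions inside, overlapping or within 5 kb were counted. Both follow from the construction of these alternatives. The numbers of higher and lower regions and of separate regions kept within 1.5 times of their values under the other alternatives run, which for a library left out follows from the separation of the groups by the calling. No paired analysis was possible because the library values come in lists without names. Libraries were sequenced in pools, the last of which held diestrus females only, and the lists do not give the pool of a library. Depth limits every ratio here, and only called regions were listed.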
